A study of Mus musculus with 9 samples.

Results

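The genes that supply cells with cysteine and turn it into glutathione were followed in embryonic stem (ES) cells starved of an amino acid. They are 9 of the 20189 genes in the count table, chosen by gene symbol: the cystine transporter Slc7a11, the transsulfuration enzymes Cbs and Cth, the glutathione synthesis genes Gclc, Gclm and Gss, the glutathione-cleaving enzymes Chac1 and Chac2, and the cysteine dioxygenase Cdo1. All 9 were counted in every library, with 158 to 12806 reads per library, and all 9 were tested. The samples were wild-type E14 cells, a single line of mouse ES cells, grown without feeder cells on gelatin in serum with leukemia inhibitory factor (LIF) and β-mercaptoethanol, a reducing agent. The 3 groups were unstarved, Cys-starved and Thr-starved cells, with 3 libraries each and starvation for 3 h. Poly(A) RNA was sequenced from both ends. The labels do not say whether the 3 replicates of a group were separate cultures, so the p-values measure the spread between these samples, which may be technical. The protocol in the labels describes media without Arg or Leu, and the withdrawn amino acid of the Thr and Cys libraries was taken from their titles.

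Cysteine enters most cultured cells as its oxidized dimer, cystine, through system xc-, in which SLC7A11 carries cystine inward in exchange for glutamate and SLC3A2 anchors it in the membrane. Cells can also make cysteine by transsulfuration: CBS joins homocysteine, which comes from Met, to serine, and CTH cleaves the product cystathionine to release cysteine. Glutamate-cysteine ligase (catalytic subunit GCLC, modifier subunit GCLM) and then glutathione synthetase (GSS) build glutathione, the main soluble thiol that protects cells from oxidation. The γ-glutamylcyclotransferases CHAC1 and CHAC2 split glutathione to 5-oxoproline and cysteinylglycine, and CDO1 oxidizes cysteine on its way to taurine and sulfate. The study asked whether loss of Thr or of Cys evokes a common transcriptional response.

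The sequences just before the start sites are shown for members whose levels moved differently, because they hold or lack short motifs tied to amino acid stress and to oxidative stress. Of the 9 genes, 6 had a promoter in the RefSeq table used (GRCm38.p6): Slc7a11, Cbs, Gclm, Gss, Chac1 and Chac2. Cth, Gclc and Cdo1 were missing. Capitals mark a match, on either strand, to TGATGNAA, the C/EBP-ATF response element (CARE) known to be bound by ATF4, or to TGACNNNGC, the antioxidant response element (ARE) known to be bound by NRF2. Each line gives the 250 bases before the RefSeq start, 5′ to 3′ on the strand of the gene: Chac1 at chr2:119350992-119351241 (plus strand), Slc7a11 at chr3:50443614-50443863 (minus strand), Gclm at chr3:122245307-122245556 (plus strand) and Chac2 at chr11:30986366-30986615 (minus strand).
Chac1: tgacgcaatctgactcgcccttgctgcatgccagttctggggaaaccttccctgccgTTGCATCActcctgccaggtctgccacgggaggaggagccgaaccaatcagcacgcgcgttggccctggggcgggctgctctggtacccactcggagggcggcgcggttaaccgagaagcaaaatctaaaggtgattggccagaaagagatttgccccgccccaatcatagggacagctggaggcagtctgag
Slc7a11: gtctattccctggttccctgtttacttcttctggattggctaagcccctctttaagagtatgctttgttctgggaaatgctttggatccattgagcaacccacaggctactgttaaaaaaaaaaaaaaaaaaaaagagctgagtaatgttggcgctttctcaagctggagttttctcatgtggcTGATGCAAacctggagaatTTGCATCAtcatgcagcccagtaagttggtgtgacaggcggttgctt
Gclm: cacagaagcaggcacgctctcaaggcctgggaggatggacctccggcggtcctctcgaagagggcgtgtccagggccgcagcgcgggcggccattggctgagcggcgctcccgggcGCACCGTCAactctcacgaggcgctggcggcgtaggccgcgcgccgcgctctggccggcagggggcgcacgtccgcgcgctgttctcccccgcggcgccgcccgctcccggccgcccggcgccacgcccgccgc
Chac2: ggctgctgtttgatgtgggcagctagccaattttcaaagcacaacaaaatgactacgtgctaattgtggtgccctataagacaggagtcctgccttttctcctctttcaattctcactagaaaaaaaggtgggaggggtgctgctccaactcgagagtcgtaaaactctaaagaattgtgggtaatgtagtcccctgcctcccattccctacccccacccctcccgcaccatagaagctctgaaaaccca
The Chac1 window held 1 CARE, on the minus strand from base -193 to -186 counted from the start. The Slc7a11 window held 2, from -66 to -59 on the plus strand and from -47 to -40 on the minus strand. The Gclm window held 1 ARE on the minus strand, from -134 to -126. Neither motif was found in the windows of Chac2, Cbs and Gss. Of all 32851 promoters searched the same way, 3.45% held a CARE, 0.0396% held 2 or more, and 10.2% held an ARE. A match of letters is a description and does not show that a factor was bound.

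Total counts per library ranged from 48763102 to 74962733, and the fitted common spread between replicates came to a coefficient of variation of 3.53%. Levels are given in CPM, read counts brought to a common library total after TMM scaling, and adjusted p-values are those of edgeR's quasi-likelihood test with Benjamini-Hochberg adjustment over all 20143 genes tested, with 0.05 as the threshold for a call. The 6 ES cell markers Pou5f1, Sox2, Nanog, Esrrb, Zfp42 and Klf4 lay between 146 and 860 CPM in every library. They moved in both directions. Mean CPM in unstarved, Cys-starved and Thr-starved cells was 849, 780 and 757 for Pou5f1, 283, 261 and 211 for Nanog, and 397, 346 and 537 for Sox2. It was 487, 583 and 655 for Esrrb, 768, 859 and 836 for Zfp42, and 148, 155 and 267 for Klf4. The summed level of the 6 markers was 2910 to 2958 CPM in the unstarved, 2973 to 2992 in the Cys-starved and 3249 to 3286 in the Thr-starved libraries. In the same order of groups, 4 fibroblast markers summed to 13.3 to 13.6, 12.0 to 14.9 and 9.48 to 10.5 CPM, 4 endoderm markers to 3.17 to 3.41, 4.30 to 5.07 and 4.63 to 5.43, 2 mesoderm markers to 0.695 to 0.853, 0.989 to 1.10 and 0.964 to 1.04, and 3 neural markers to 19.2 to 20.4, 23.8 to 25.3 and 27.5 to 31.5. Mesp1, also listed as a mesoderm marker, was absent from the count table. None of the markers in the count table was at 0 in any library, and the part of these shifts in the results was not tested. In bulk RNA, fewer cells of a type and less RNA per cell cannot be told apart.

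Starvation for Cys changed 5 of the 9 genes, 3 upward (Slc7a11, Cth and Chac1) and 2 downward (Gclc and Gclm), while Cbs, Gss, Chac2 and Cdo1 did not pass the test. Over all genes tested, 36.3% were called in this comparison. The 2 groups did not overlap for the same 5 genes, against 46.4% of all genes tested. Starvation for Thr changed all 9, against 63.0% of all genes tested: Cth, Chac1, Chac2 and Cdo1 were higher and Slc7a11, Cbs, Gclc, Gclm and Gss were lower. The groups did not overlap for 8 of the 9, against 66.5% of all genes, and the exception was Slc7a11. The median log2 fold change of the 9 genes was 0.02 with Cys and -0.21 with Thr starvation, beside medians of 0.007 and -0.016 over all genes tested. Both comparisons use the same unstarved libraries. The shares over all genes tested, here and below, take in genes with few reads, as 11410 of the 20143 averaged 5 CPM or more. They are therefore not shares among genes counted as well as most members.

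**Figure D1:**
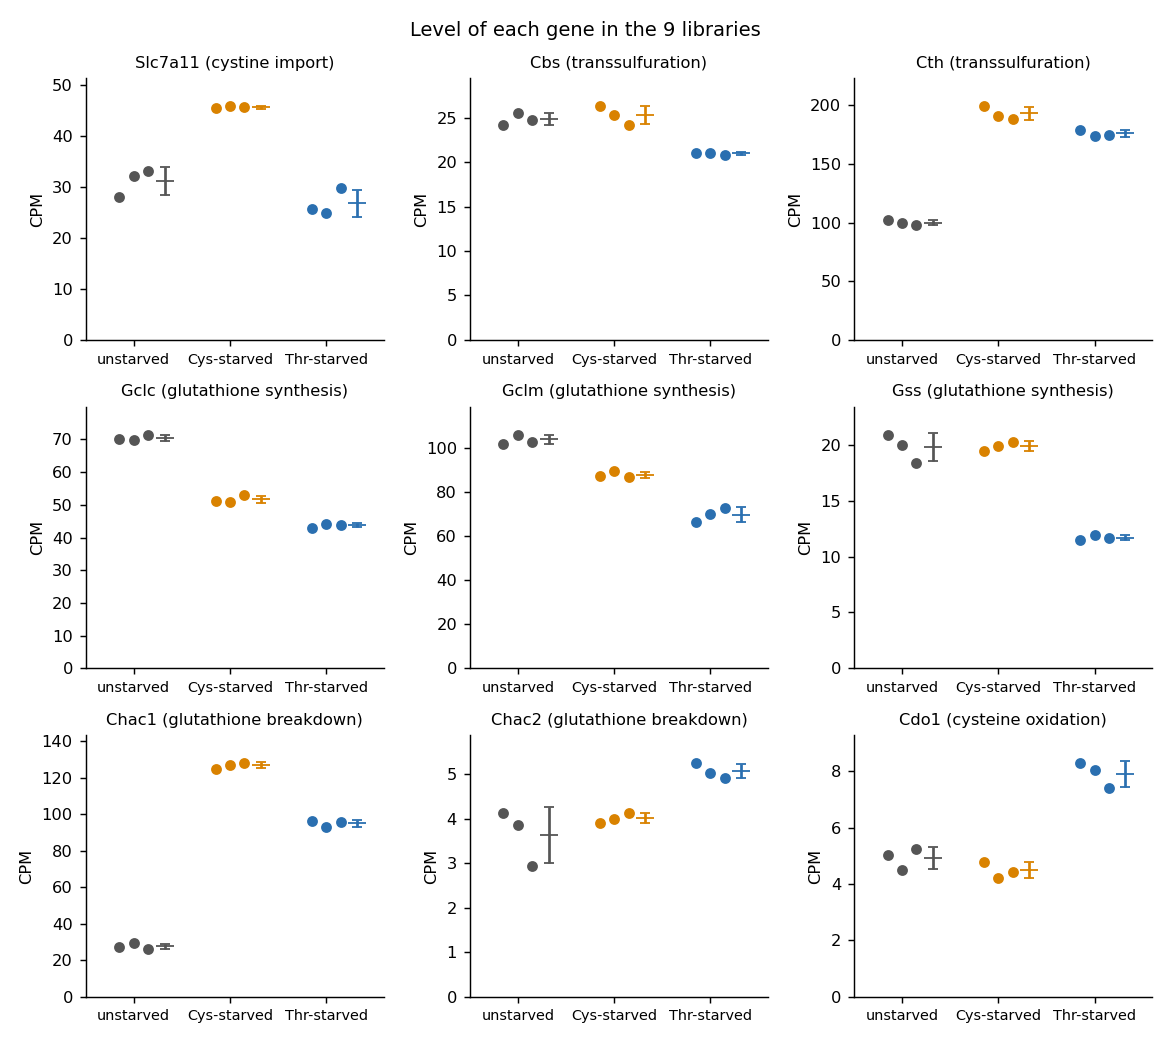
Level of each of the 9 genes in CPM (y axis, from 0) in the 9 libraries, with 1 point per library and the group mean with SD beside the points. Slc7a11 lies at 45.4 to 45.8 CPM in the Cys-starved libraries, above every unstarved and Thr-starved library, whereas Chac1 and Cth are high in both starvations and Gss is low in the Thr-starved libraries.

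Slc7a11, the cystine carrier of system xc- (ENSMUSG00000027737, GRCm38 chr3:49892526-50443614, minus strand), moved in opposite directions in the 2 starvations. It stood at 28.1, 32.2 and 33.2 CPM in the unstarved, at 45.4, 45.8 and 45.6 CPM in the Cys-starved and at 25.6, 24.9 and 29.8 CPM in the Thr-starved libraries. The Cys-starved libraries were the highest and lay apart from all others, and 1 Thr-starved library was above the lowest unstarved library. With Cys starvation the level rose 1.46-fold (log2 fold change 0.55, SE 0.058, edgeR adjusted p = 9.8e-08), rank 202 from the top among the 11410 genes that averaged 5 CPM or more. With Thr starvation it fell by 0.21 on the log2 scale (SE 0.061, edgeR adjusted p = 0.0045). This fall was -0.48 once trends with GC content and transcript length were removed. Leaving out 1 library gave -0.30 to -0.16, with edgeR adjusted p up to 0.038. The direct test between the 2 starvations gave a log2 difference of -0.76 for Thr-starved against Cys-starved cells (SE 0.059, edgeR adjusted p = 1.2e-10). Of its longest transcript, 4.1% matched other genes at 95% identity or more, tubulin genes among them.

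Its partner Slc3a2, the heavy chain that Slc7a11 shares with other amino acid carriers, rose in both starvations. The level was 350 to 359 CPM in the unstarved, 408 to 424 CPM in the Cys-starved and 586 to 594 CPM in the Thr-starved libraries, with no overlap between any 2 groups. The log2 fold change was 0.23 with Cys and 0.73 with Thr starvation (SE 0.021 for each, edgeR adjusted p = 7.2e-09 and 1.9e-18), and the direct difference of Thr from Cys starvation was 0.50 (edgeR adjusted p = 1.9e-15). The order of the starvations was thus the reverse of that of Slc7a11.

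The 2 transsulfuration enzymes parted. Cth, which releases cysteine from cystathionine (ENSMUSG00000028179, chr3:157894248-157925077, minus strand), stood at 102, 99.8 and 98.2 CPM in the unstarved libraries. It reached 199, 191 and 188 CPM with Cys and 179, 174 and 175 CPM with Thr starvation, and none of the 3 groups overlapped. The rise was 1.93-fold with Cys starvation (log2 0.94, SE 0.027, edgeR adjusted p = 3.1e-17), rank 42 from the top among the 11410 genes, and 1.75-fold with Thr starvation (log2 0.81, SE 0.027, edgeR adjusted p = 3.6e-17), rank 715. The direct difference was -0.13 (SE 0.026, edgeR adjusted p = 0.00012), and -0.30 with the GC content and length trends removed.

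Cbs, which forms cystathionine (ENSMUSG00000024039, chr17:31608894-31637238, minus strand), stood at 24.2, 25.6 and 24.8 CPM in the unstarved, 26.3, 25.3 and 24.2 CPM in the Cys-starved and 21.1, 21.1 and 20.8 CPM in the Thr-starved libraries. The Thr-starved libraries were below all others, and the Cys-starved and unstarved libraries overlapped. Cbs fell by 0.24 on the log2 scale with Thr starvation (SE 0.046, edgeR adjusted p = 6.8e-05). With Cys starvation the log2 fold change was 0.02 with a 95% confidence interval of -0.07 to 0.12 (edgeR adjusted p = 0.74), and the direct difference was -0.27 (edgeR adjusted p = 2.2e-05). Stretches covering 6.5% of its longest transcript matched 19 other genes, so a part of its reads may be shared.

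The genes for glutathione synthesis were lower where they passed the test. Gclc, the catalytic subunit of glutamate-cysteine ligase (ENSMUSG00000032350, chr9:77754535-77794485, plus strand), stood at 70.1, 69.9 and 71.4 CPM in the unstarved, 51.2, 51.0 and 53.0 CPM in the Cys-starved and 43.0, 44.2 and 43.8 CPM in the Thr-starved libraries. The 3 groups lay apart, with the Thr-starved libraries lowest. The log2 fold change was -0.45 with Cys (SE 0.031, edgeR adjusted p = 1.8e-10) and -0.69 with Thr starvation (SE 0.032, edgeR adjusted p = 1.1e-14), a change of -26.6% and -38.0% from the unstarved level. By size of the fall, Gclc ranked 217 of 11410 genes with Cys and 1037 with Thr starvation. The direct difference was -0.24 (edgeR adjusted p = 6.6e-07).

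Gclm, the modifier subunit that makes the ligase more active (ENSMUSG00000028124, chr3:122245557-122270732, plus strand), followed the same order. It stood at 102, 106 and 103 CPM in the unstarved, 87.3, 89.4 and 86.9 CPM in the Cys-starved and 66.3, 70.1 and 73.0 CPM in the Thr-starved libraries, with no overlap. The log2 fold change was -0.24 with Cys (SE 0.032, edgeR adjusted p = 2.9e-06) and -0.57 with Thr starvation (SE 0.032, edgeR adjusted p = 4.6e-13). The direct difference was -0.33 (edgeR adjusted p = 6.8e-09). Gclm shares 296 bp of exon with Gm17494 on the other strand, which was at 206 CPM in the unstarved cells and had log2 fold changes of -0.11 with Cys and -0.10 with Thr starvation. The paper names a directional library kit, but the strand setting of the counting is not given in the sources used here. Whether reads of the stretch shared with Gm17494 were told apart by strand is therefore not known. On its own strand Gclm shares 244 bp of exon with the pseudogene Gm6061, which was absent from the count table.

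Gss, which adds glycine in the last step (ENSMUSG00000027610, chr2:155563181-155592810, minus strand), was low in Thr-starved cells. Its level was 20.9, 20.0 and 18.4 CPM in the unstarved, 19.5, 19.9 and 20.3 CPM in the Cys-starved and 11.5, 11.9 and 11.7 CPM in the Thr-starved libraries. The Thr-starved libraries lay far below the other 6, which overlapped each other. Gss fell by 0.76 on the log2 scale with Thr starvation (SE 0.056, edgeR adjusted p = 4.7e-11), a change of -40.9%. With Cys starvation the value was 0.01 with a 95% confidence interval of -0.10 to 0.12 (edgeR adjusted p = 0.93), and the direct difference was -0.77 (edgeR adjusted p = 4.1e-11). Acss2, which shares 395 bp of exon on the other strand, was at 6.60 ± 0.812, 6.71 ± 0.368 and 6.34 ± 0.432 CPM (SD, n = 3) in unstarved, Cys-starved and Thr-starved cells and was not called in any comparison. Gssos2 and Gssos1, which share 385 and 322 bp of exon on the other strand, were absent from the count table, so their levels are not known.

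Chac1, the stress-inducible cyclotransferase (ENSMUSG00000027313, chr2:119351229-119354381, plus strand), showed the largest change of the 9 genes in both starvations. It rose from 27.1, 29.3 and 26.4 CPM in the unstarved libraries to 125, 127 and 128 CPM with Cys and to 96.6, 92.9 and 95.8 CPM with Thr starvation. All starved libraries lay above all unstarved ones, and the Cys-starved lay above the Thr-starved libraries. The rise was 4.58-fold with Cys (log2 2.20, SE 0.035, edgeR adjusted p = 2.3e-21) and 3.44-fold with Thr starvation (log2 1.78, SE 0.035, edgeR adjusted p = 3.4e-21). It ranked 4 from the top of the 11410 genes with Cys and 43 with Thr starvation. The direct difference was -0.41 (SE 0.031, edgeR adjusted p = 9.2e-11), and -0.24 with GC content and length trends removed.

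Chac2, the constitutive cyclotransferase (ENSMUSG00000020309, chr11:30976707-30986350, minus strand), was scarce, with 158 to 361 reads per library. It stood at 4.12, 3.86 and 2.93 CPM in the unstarved, 3.90, 4.00 and 4.13 CPM in the Cys-starved and 5.24, 5.03 and 4.92 CPM in the Thr-starved libraries. The Thr-starved libraries were the highest, and the other 2 groups overlapped, the unstarved libraries being the most scattered. The log2 fold change with Thr starvation was 0.47 (SE 0.11, edgeR adjusted p = 0.00074). With Cys starvation it was 0.14 with a 95% confidence interval of -0.10 to 0.37 (edgeR adjusted p = 0.38), and the direct difference was 0.33 (SE 0.11, edgeR adjusted p = 0.010). Its transcript has the lowest GC content of the 9 genes, 37.6%, and neither call held once GC content and length trends were removed (0.15 with edgeR adjusted p = 0.25 for Thr against unstarved, and 0.06 with adjusted p = 0.65 for Thr against Cys). Asb3, whose gene overlaps on the other strand without shared exon, had log2 fold changes of 0.31 with Thr and -0.01 with Cys starvation.

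Cdo1, which commits cysteine to oxidation (ENSMUSG00000033022, chr18:46713193-46728395, minus strand), rose in Thr-starved cells. Its level was 5.03, 4.50 and 5.25 CPM in the unstarved, 4.79, 4.22 and 4.44 CPM in the Cys-starved and 8.28, 8.05 and 7.40 CPM in the Thr-starved libraries. All Thr-starved libraries lay above the other 6, which overlapped. The rise with Thr starvation was 1.60-fold (log2 0.68, SE 0.088, edgeR adjusted p = 4.5e-07). Counts were low, with 265 to 543 reads per library. With Cys starvation the log2 fold change was -0.13 with a 95% confidence interval of -0.33 to 0.06 (edgeR adjusted p = 0.29), and the direct difference was 0.81 (edgeR adjusted p = 3.2e-08).

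The direct comparison of the 2 starvations called all 9 genes, against 62.0% of all genes tested, and the 2 groups did not overlap for any of them, against 65.8% of all genes. Chac2 and Cdo1 were higher in Thr-starved and the other 7 were higher in Cys-starved cells. The log2 differences ranged from -0.77 for Gss to 0.81 for Cdo1, with a median of -0.27 beside -0.018 over all genes tested. Slc7a11 and Gss thus differed by nearly the same amount, -0.76 and -0.77. Slc7a11 was above its unstarved level in Cys-starved cells, and Gss was below its unstarved level in Thr-starved cells.

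**Figure D2:**
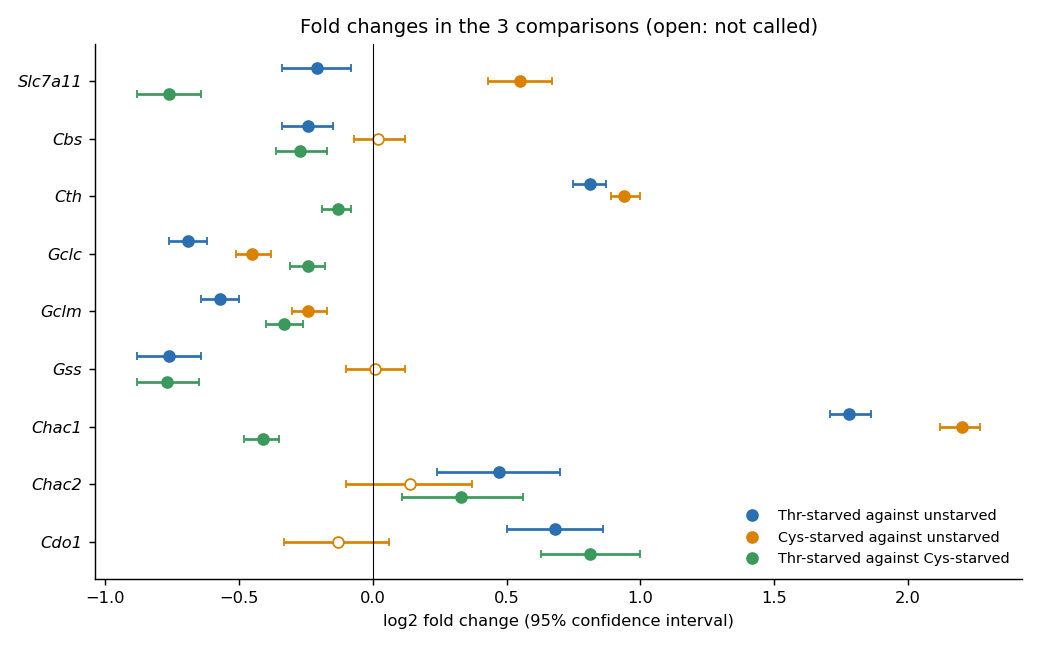
Log2 fold change (x axis) of each of the 9 genes (y axis) with its 95% confidence interval in the 3 comparisons (each starvation against unstarved libraries, and Thr against Cys starvation), with open symbols for values that were not called. Chac1 rises by 1.78 and 2.20, Slc7a11 is the gene whose 2 called values lie on opposite sides of 0 (-0.21 and 0.55), and the 4 open symbols all belong to Cys starvation.

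**Figure D3:**
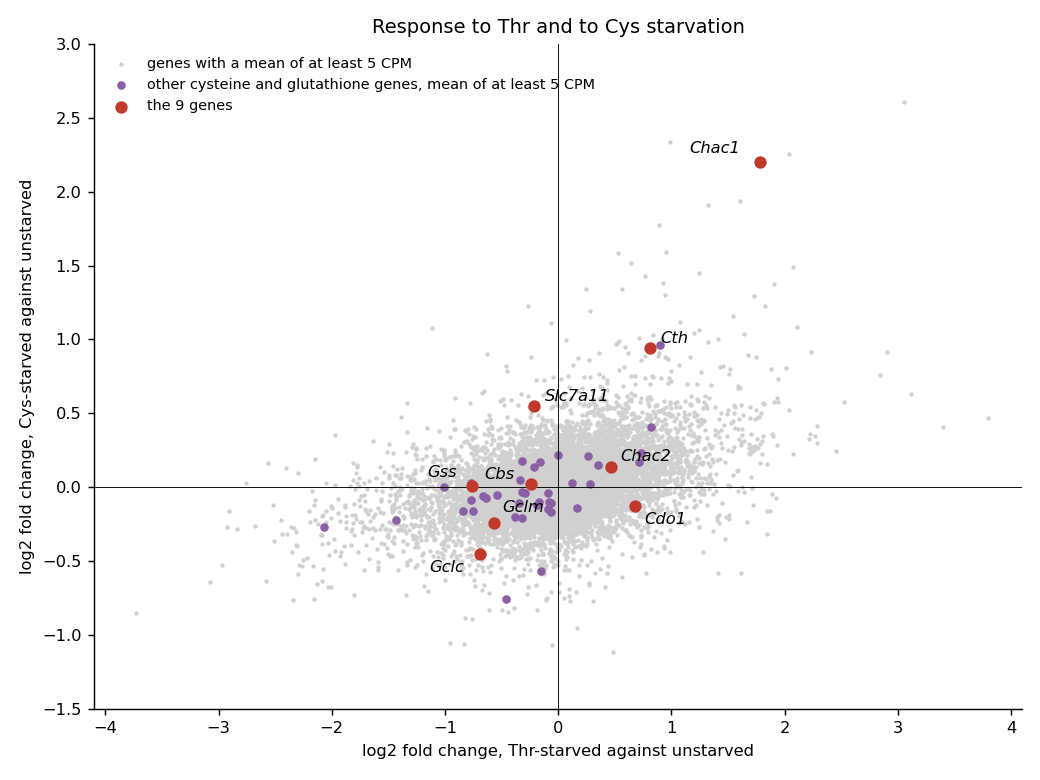
Log2 fold change with Cys starvation (y axis) against that with Thr starvation (x axis), both against the same unstarved libraries, for the 11410 genes that averaged 5 CPM or more (grey), the other cysteine and glutathione genes among them (purple) and the 9 genes (red; Chac2 is drawn although its mean is below 5 CPM). Chac1 stands at the upper right, Cth at 0.81 and 0.94, Slc7a11 to the upper left at -0.21 and 0.55, and Gclc and Gclm at the lower left.

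Levels in TPM, in which counts are divided by exon length and scaled to the same total in each library, set the genes against each other. In unstarved cells Cth was highest with 75.6 ± 1.25 TPM (SD, n = 3), at percentile 89.3 of all genes, followed by Gclc with 39.4 ± 0.541, Chac1 with 35.5 ± 1.95 and Gclm with 34.7 ± 0.773 TPM. Chac1 and Gclm overlapped. The other 5 were far lower, with Gss at 7.04 ± 0.436, Cbs at 7.00 ± 0.221, Cdo1 at 6.31 ± 0.488, Chac2 at 5.82 ± 0.984 and Slc7a11 at 4.72 ± 0.426 TPM. Of neighbours in this order, Gss and Cbs, Cdo1 and Chac2, and Chac2 and Slc7a11 overlapped, and Gss also overlapped Cdo1 and Chac2.

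In Cys-starved cells Chac1 was first with 175 ± 1.99 TPM, at percentile 94.7, and Cth second with 156 ± 4.97 TPM. Gclm and Gclc followed with 31.6 ± 0.351 and 31.0 ± 0.699 TPM and overlapped. Cbs (7.63 ± 0.333), Gss (7.60 ± 0.152) and Slc7a11 (7.40 ± 0.00516 TPM) were close to each other, above Chac2 with 6.89 ± 0.178 and Cdo1 with 6.17 ± 0.433 TPM. Of these neighbours, Cbs and Gss overlapped. In Thr-starved cells the order was Cth with 136 ± 1.58, Chac1 with 126 ± 2.00, Gclc with 25.1 ± 0.464 and Gclm with 24.0 ± 1.18 TPM, of which Gclc and Gclm overlapped. Cdo1 came next with 10.4 ± 0.606 TPM, ahead of Chac2 (8.35 ± 0.256), Cbs (6.08 ± 0.0772), Gss (4.28 ± 0.107) and Slc7a11 (4.17 ± 0.406 TPM), and the last 2 overlapped. The order depends on the length used. For Slc7a11 the annotated exons add up to 13922 bp and the longest transcript to 9223 bp. For Gss these are 5915 and 3258 bp, for Cth 2791 and 1815 bp, and for Chac1 both are 1637 bp. The places of Slc7a11 and Gss are therefore uncertain, as is the order of Chac1 and Cth in Cys-starved cells.

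Ratios of counts per kb of exon within a library compared members that act together. Library scaling drops out of them, but trends with GC content do not. Chac1 to Chac2 stood at 5.28, 6.10 and 7.25 in the unstarved, 25.7, 25.4 and 25.0 in the Cys-starved and 14.8, 14.8 and 15.6 in the Thr-starved libraries. Every starved library was above every unstarved one, and the mean ratio differed from the unstarved by 2.04 on the log2 scale with Cys and by 1.29 with Thr starvation. Cbs to Cth stood at 0.0883, 0.0956 and 0.0942 in the unstarved, 0.0494, 0.0492 and 0.0480 in the Cys-starved and 0.0441, 0.0454 and 0.0443 in the Thr-starved libraries, log2 differences of -0.92 and -1.05. None of these groups overlapped.

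The ratio of the ligase subunits, Gclc to Gclm, changed little. It was 1.15, 1.11 and 1.15 in the unstarved, 0.979, 0.953 and 1.02 in the Cys-starved and 1.08, 1.05 and 1.00 in the Thr-starved libraries. Both starved groups lay below the unstarved libraries, by 0.21 with Cys and 0.12 with Thr on the log2 scale, and overlapped each other. In two-sided exact permutation tests, 3 against 3 libraries cannot give p below 0.1, so none of the 9 ratio comparisons could pass 0.05. The exact permutation p was 0.1 (adjusted over the 9 comparisons 0.11) for all but Gclc to Gclm between the 2 starvations, where it was 0.2 (adjusted 0.20).

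**Figure D4:**
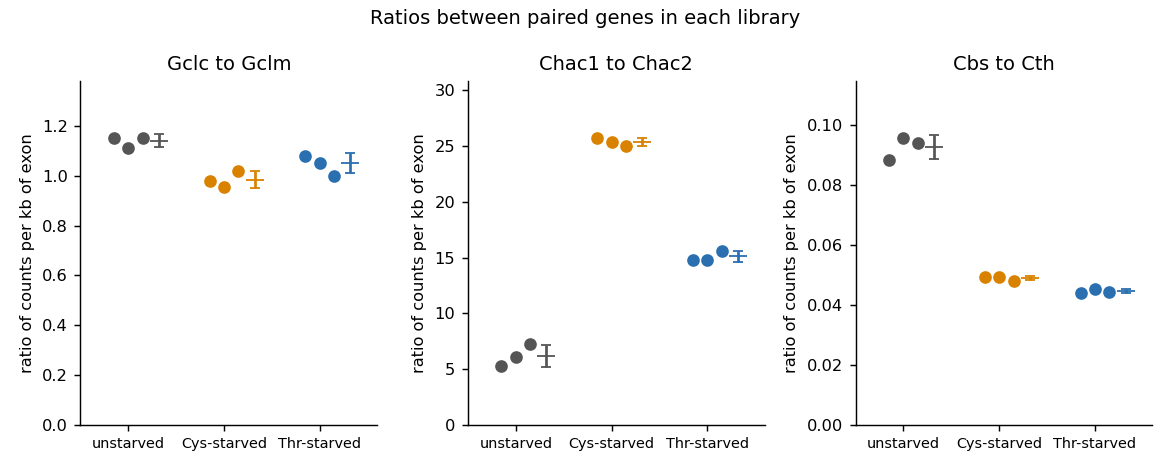
Ratio of counts per kb of exon (y axis, from 0) for Gclc to Gclm, Chac1 to Chac2 and Cbs to Cth in the 9 libraries, with 1 point per library and the group mean with SD. Chac1 to Chac2 goes from a mean of 6.21 to 25.4 with Cys and 15.1 with Thr starvation, Cbs to Cth drops from 0.0927 to 0.0489 and 0.0446, and Gclc to Gclm stays between 0.953 and 1.15. No offset for GC content enters these ratios.

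Around the 9 genes, 47 other genes of cysteine and glutathione metabolism in 4 lists were tested (Slc3a1 and Dpep1 were not analysed here). With Thr starvation 9 were higher and 30 lower, against 31.1% higher and 31.9% lower of all genes tested. With Cys starvation 9 were higher and 13 lower, against 17.5% and 18.8%. The median log2 fold change of the 47 was -0.29 with Thr and -0.04 with Cys starvation, beside -0.016 and 0.007 over all genes tested. Thr-starved against Cys-starved cells had 11 higher and 26 lower, against 30.4% and 31.6% of all genes, with a median of -0.22.

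Of 10 genes for the transport of cystine, cysteine and glutathione, 4 were higher and 3 lower with Thr starvation, and 6 were higher and none lower with Cys starvation. Of all genes tested, 31.1% were higher and 31.9% lower with Thr, and 17.5% and 18.8% with Cys starvation. The median log2 fold change of the 10 was 0.39 with Thr and 0.23 with Cys starvation, beside -0.016 and 0.007 over all genes. With Thr starvation no gene lay near this median, which fell between Slc1a1 at 0.08 and Ctns at 0.71. It also takes in Slc7a9, with 3 to 13 reads per library and a value of 1.10 that was not called. Slc1a1, among those higher with Cys starvation, had 20 to 62 reads per library. Slc1a4, a carrier of neutral amino acids, went from 41.5, 43.9 and 44.3 CPM unstarved to 85.8, 83.6 and 82.8 CPM with Cys and 80.4, 79.3 and 82.3 CPM with Thr starvation. Its log2 fold change was 0.96 with Cys and 0.90 with Thr starvation, and the direct difference of -0.06 was not called (edgeR adjusted p = 0.11). Slc25a40, a mitochondrial glutathione carrier, rose by 0.41 and 0.82. Ctns, which exports cystine from lysosomes, rose by 0.71 with Thr starvation and had 0.17 with Cys starvation (edgeR adjusted p = 0.069). The latter value was called without unstarved replicate 3 (0.21), Thr-starved replicate 1 (0.17) or Thr-starved replicate 3 (0.17) and with only the 2 groups fitted (0.17), at edgeR adjusted p of 0.045 to 0.048. Mfsd12, which serves cysteine import into lysosomes, fell by 0.66 with Thr starvation and had -0.06 with Cys starvation (edgeR adjusted p = 0.62), but 30.1% of its transcript matched the overlapping gene 4930404N11Rik. Without GC content and length trends the fall of Mfsd12 was -0.30.

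The γ-glutamyl cycle and dipeptide cleavage list of 8 genes had none higher in either starvation, 5 lower with Thr and 2 lower with Cys, with medians of -0.24 and -0.09. Of all genes tested, 31.1% were higher and 31.9% lower with Thr starvation (median -0.016), and 17.5% and 18.8% with Cys starvation (median 0.007). Ggt5, among those lower with Thr starvation, had 0 to 10 reads per library. Anpep, an aminopeptidase of the cell surface that can cleave cysteinylglycine, held 14.7, 15.0 and 15.2 CPM in the unstarved, 12.5, 12.4 and 12.5 CPM in the Cys-starved and 3.55, 4.11 and 3.14 CPM in the Thr-starved libraries. It fell by 2.07 on the log2 scale with Thr starvation (SE 0.080, edgeR adjusted p = 4.3e-16), rank 49 of 11410 genes by size of fall, and by 0.27 with Cys starvation (SE 0.066, edgeR adjusted p = 0.0028). Lap3, a leucine aminopeptidase, fell by 0.32 with Thr starvation and had -0.03 with Cys starvation (edgeR adjusted p = 0.29), which was called at -0.07 with the deposited size factors. Cndp2, a cytosolic dipeptidase, fell by 0.15 with Cys and by 0.09 with Thr starvation, and the second value became -0.01 without GC content and length trends. Its call was also lost without unstarved replicate 2 (-0.06) or Thr-starved replicate 1 (-0.08) and at a threshold of 0.01. Its small excess in Thr-starved over Cys-starved cells, 0.07, lost its call under several alternatives. Oplah, which opens 5-oxoproline to glutamate, was 0.33 lower in Thr-starved than in Cys-starved cells on the log2 scale, a difference of -0.03 without GC content and length trends. It shares exon stretches with 2 genes on the other strand.

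Of 17 genes that use or recycle glutathione, 13 fell and 2 rose with Thr starvation, and 8 fell, 2 rose and 7 were not called with Cys starvation, with medians of -0.35 and -0.12. Over all genes tested, 31.9% fell and 31.1% rose with Thr starvation (median -0.016), and 18.8% and 17.5% with Cys starvation (median 0.007). Gsr, which reduces oxidized glutathione, was at 177 to 182 CPM unstarved, 168 to 171 with Cys and 102 to 107 CPM with Thr starvation, log2 fold changes of -0.09 and -0.77 (edgeR adjusted p = 0.0072 and 4.3e-17). Gsta4, a glutathione transferase for lipid aldehydes, fell by 0.77 with Thr starvation and had 0.03 with Cys starvation (edgeR adjusted p = 0.33), which was called at 0.10 without GC content and length trends and was -0.01 with the deposited size factors. Txnrd1 and Gpx1 had the opposite order. Txnrd1, the cytosolic thioredoxin reductase, went from 262, 281 and 269 CPM unstarved to 161, 160 and 159 CPM with Cys and 196, 197 and 196 CPM with Thr starvation. It fell by 0.76 with Cys starvation, rank 19 of 11410 genes by size of fall, and by 0.46 with Thr starvation, and the direct difference was 0.30 (edgeR adjusted p = 6.1e-10). Gpx1, a peroxidase that uses glutathione, fell by 0.57 with Cys and by 0.15 with Thr starvation, and the second value became 0.03 without GC content and length trends. Gpx4, the peroxidase that reduces lipid hydroperoxides, rose by 0.17 with Thr and fell by 0.14 with Cys starvation (edgeR adjusted p = 1.7e-05 and 0.00036), values of 0.47 and -0.07 without those trends, and 73.7% of its transcript matched pseudogenes.

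All 12 genes that use or break down cysteine were called with Thr starvation, 3 higher and 9 lower, and 4 were called with Cys starvation, 1 higher and 3 lower, with medians of -0.55 and -0.01. Over all genes tested, 63.0% were called with Thr and 36.3% with Cys starvation, with medians of -0.016 and 0.007. Sqor, among those lower with Thr starvation, had 2 to 16 reads per library. The sulfurtransferase Tst was at 16.6, 18.9 and 17.0 CPM unstarved, 15.4, 15.0 and 14.9 CPM with Cys and 6.35, 6.54 and 6.56 CPM with Thr starvation. It fell by 1.43 with Thr (SE 0.065, edgeR adjusted p = 8.5e-15) and by 0.22 with Cys starvation (edgeR adjusted p = 0.0051), a call lost without unstarved replicate 2 (-0.16). Nfs1, the cysteine desulfurase that gives sulfur to iron-sulfur clusters, was at 20.4 to 22.5 CPM unstarved, 20.8 to 22.1 CPM with Cys and 9.82 to 11.2 CPM with Thr starvation. Its log2 fold change was -1.01 with Thr starvation (edgeR adjusted p = 7.9e-13), and with Cys starvation the 95% confidence interval was -0.12 to 0.11. Of its transcript, 19.8% matched other genes. Csad, which acts after Cdo1 in taurine synthesis, fell by 0.84 with Thr starvation, in which Cdo1 rose, and by 0.16 with Cys starvation. The latter call was lost without unstarved replicate 2 (-0.14), Cys-starved replicate 1 (-0.15) or Cys-starved replicate 3 (-0.14).

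**Figure D5:**
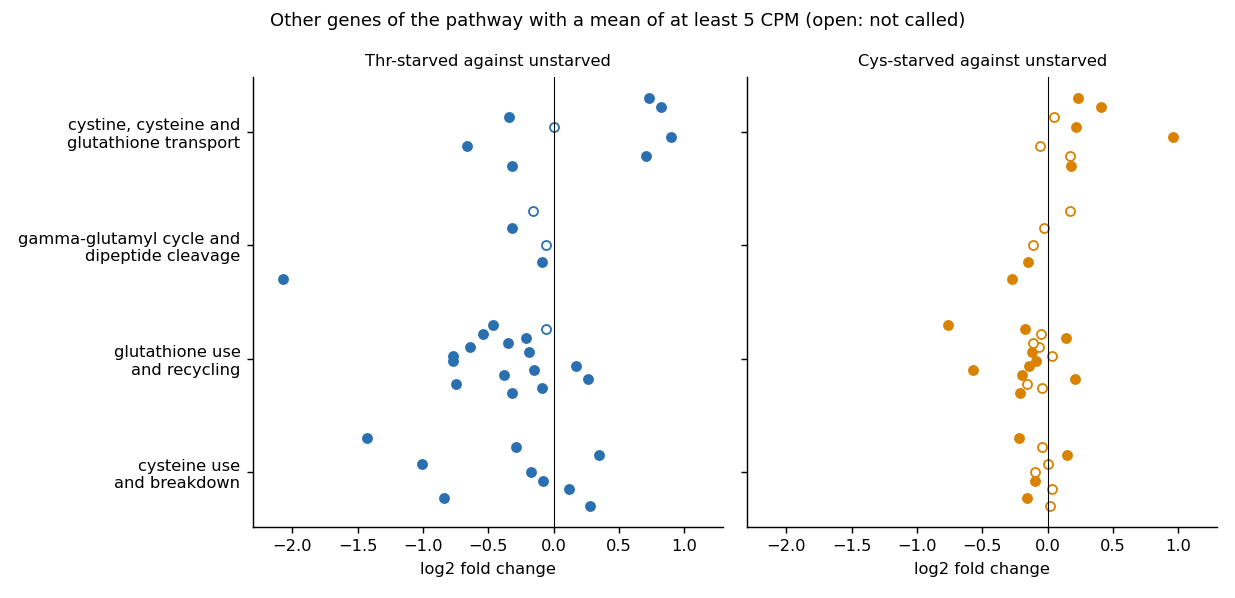
Log2 fold change (x axis) of the other pathway genes that averaged 5 CPM or more, by list (y axis), for Thr-starved and for Cys-starved against unstarved libraries, with filled symbols for called and open symbols for other genes. Anpep is the point at -2.07 with Thr starvation, Slc1a4 the one at 0.96 and Txnrd1 the one at -0.76 with Cys starvation.

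Among the 11410 genes that averaged 5 CPM or more, likeness to a member was measured as the distance between the 2 log2 fold changes of each gene (Thr and Cys against unstarved) over the 3 groups. The gene nearest to Slc7a11 was Iqcc, with -0.22 and 0.57 and a distance of 0.024, then Prr5l with -0.26 and 0.54 and Tmem206 with -0.24 and 0.50. Nearest to Cth were Herpud1 (0.77 and 0.89), Hmox1 (0.84 and 1.03) and Syde1 (0.89 and 0.91), at distances of 0.070 to 0.089. The genes nearest to Chac1 lay farther off: Adm2 with 2.03 and 2.26 lay at a distance of 0.257, Hrk with 1.60 and 1.94 at 0.315 and Tsc22d3 with 1.32 and 1.91 at 0.543.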

How the data were processed

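Both deposited tables were used. The authors made the raw counts by mapping paired-end reads to GRCm38 with STAR 2.7.4a and counting them per Ensembl gene with HTSeq, and these counts were deposited without normalization. The deposited signal values are the same counts after division by size factors from DESeq2, 1 for each library. Strand and overlap settings of the counting are not given in the sources used here. Of the counts from 1 to 20, 67.8% were even, as if both ends of a fragment had been counted.

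Counts were tested with edgeR 4.0.16 (R 4.3.3; TMM, quasi-likelihood test) over the 20143 genes with at least 1 count, all 9 libraries in a single fit, with Benjamini-Hochberg adjustment and calls at 0.05. The script was tested on simulated data. Groups came from the sample titles. The 3 comparisons were each starvation against unstarved cells and Thr-starved against Cys-starved cells. CPM used TMM-scaled library sizes, and TPM and the ratios used the union of GENCODE M21 exons, in which 20171 identifiers had a symbol and 18 had none. Near-identical sequence was searched with BLAST 2.17.0 (at least 100 bp and 95% identity) from the longest transcript. Motifs were searched in the 250 bases before RefSeq starts. Intervals are 95% confidence intervals.

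The 9 genes and the lists were chosen with earlier results of these data known. Named were all 9 genes, Slc3a2, Gsr and Gpx4 throughout, per list and comparison the 2 called genes with the largest absolute log2 fold change among those with a mean of at least 5 CPM and no overlap between groups, and for Slc7a11, Chac1 and Cth the 3 genes with the nearest pair of log2 fold changes.

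Alternatives were DESeq2 1.42.0, RLE normalization, the deposited size factors, the filterByExpr filter, at least 10 counts in every library, a fit of only the 2 groups at hand, the replicate block, a threshold of 0.01, offsets that remove loess trends (span 0.3) with GC content and transcript length, each library left out, and, for ratios, the longest transcript in place of the exon union. Halved counts were added after seeing the data. Tables were built in Python 3.11.15 (pandas 2.3.3, scipy 1.17.1) and drawn with matplotlib 3.10.9. Libraries of Arg or Leu starvation were not used here.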

Additional observations from a re-analysis of the deposited data

Results flagged for a closer look

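Slc7a11 differed between the starvations: it was called higher with Cys and lower with Thr starvation, and the direct contrast of Thr-starved against Cys-starved cells gave -0.76 on the log2 scale (edgeR's quasi-likelihood test, adjusted p = 1.2e-10). The difference was -0.93 with GC content and length trends removed, and the smallest under any alternative was -0.71. The fall with Thr starvation was small (-0.21), with overlapping libraries.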

How the results depend on the processing

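The call counts and ratio differences kept their direction and stayed within 1.5 times or 1 SD of the reported value under every alternative run. Gene length cancels in the difference of a ratio between groups, so the use of the longest transcript could not move it. Members called numbered 8 to 9 with Thr, 5 throughout with Cys and 8 to 9 between the starvations, and the lower values came with GC content and length offsets and, between the starvations, also with a threshold of 0.01. Of 513 values for the 9 genes under alternatives, 504 kept their direction and call, 3 lost a call (all Chac2) and 6 changed sign. The sign changes were Cbs with Cys starvation (-0.02 with the deposited size factors, -0.01 to 0.05 leaving out 1 library) and Gss with Cys starvation (-0.03 with the deposited size factors, -0.00029 with GC content and length offsets, -0.04 to 0.05 leaving out 1 library), neither of them called. Chac2 gave 0.33 (adjusted p = 0.010) between the starvations.

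Of 969 values for the other named genes, 932 kept direction and call, 19 lost a call, 8 gained one and 10 changed sign. With GC content and length offsets these became 0.13 for Oplah and 0.03 for Gpx1 with Thr, 0.0030 for Nfs1 with Cys and 0.06 for Slc1a4 between the starvations. Gsta4 with Cys became -0.01 with the deposited size factors. Nfs1 with Cys became 0.0030 with at least 10 counts in every library, 0.00023 with only the 2 groups fitted and -0.05 to 0.02 leaving out 1 library. The cause was not tested.

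The replicate block left the counts of members called at 9, 5 and 9 for Thr, Cys and the direct comparison, with a log2 fold change of -0.22 and 0.55 for Slc7a11. Of the other named genes it ended 1 call (Cndp2 between the starvations, 0.07, adjusted p = 0.054). Same-numbered libraries did not deviate together (correlations of -0.244 to 0.106), so the numbers were not taken as pairs. Halved counts, chosen after seeing the data, changed no call of the 9 genes. Depth limits Chac2 and Cdo1 most, with 158 to 543 reads per library.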

Other observations

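Gm43314, an annotation inside the Cth gene on the same strand with no shared exon, was at 0.653 ± 0.0210 CPM (SD, n = 3) in unstarved, 3.06 ± 0.0689 in Cys-starved and 1.37 ± 0.395 in Thr-starved cells. Its log2 fold change of 2.23 with Cys and 1.05 with Thr starvation (edgeR adjusted p = 2.0e-09 and 8.8e-05) stands beside 0.94 and 0.81 for Cth. It was singled out after its values were seen.

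Of the 41 other pathway genes with a promoter in the RefSeq table, 2 held the CARE (Sqor and Got1) and 6 the ARE (Nfs1, Ggct, Mgst1, Ggt1, Txnrd1 and Mpst). For pathway genes, any match on chromosome 18 was left out of these counts. Of all promoters searched, 3.45% held a CARE and 10.2% an ARE. Txnrd1, with an ARE from -92 to -84, was the gene among the lists with the largest fall in Cys starvation (-0.76). The other genes of the lists with an ARE were not called in Cys starvation (Nfs1 -0.00, Ggct -0.11, Mgst1 -0.38, Ggt1 -0.25 and Mpst -0.10). Of these, Mgst1 had 16 to 47 and Ggt1 54 to 148 reads per library, which limits what the lack of a call shows. Among the members, Gclm, with an ARE from -134 to -126, was called lower in Cys starvation (-0.24). A link between the motif and the changes was not tested.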
